A study of Mus musculus with 18 samples.

Results

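Epiregulin (Ereg) and heparin-binding EGF-like growth factor (Hbegf) are ligands of the epidermal growth factor (EGF) receptor, and their mRNA was followed in mouse dendritic cells over 24 h of lipopolysaccharide (LPS). The genes were Ereg, amphiregulin (Areg) and Hbegf, chosen with their levels on these arrays already known, and each was read from the probe sets annotated to it alone. Of these 3 listed genes, 2 had such probe sets among the 12394 genes named on the array. Ereg had 1 probe set (1419431_at) and Hbegf had 2, of which the brighter (1418350_at) was used and the other (1418349_at) served as a check. Areg had no annotated probe set in the table used here and was not analysed here. Since the choice of Ereg and Hbegf used these values, their levels and differences are given as a description, with no test.

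The 18 Affymetrix arrays held 1 sample for each of 3 conditions and 6 times, with no replicates. The cells were grown for 7 to 10 days from C57BL/6 bone marrow of mice aged 6 to 8 weeks with supernatant of B16 tumour cells transduced to secrete GM-CSF, and were used when over 90% carried CD11c. The conditions were wild type cells alone, wild type cells that received LPS together with 2 mM EGTA, a chelator of extracellular calcium, and CD14-deficient cells, which lack a co-receptor that hands LPS to its signalling receptor. Each was sampled without LPS and after 2, 4, 6, 12 and 24 h of LPS, at 1 µg/ml in both wild type series; the labels used here give no concentration for the CD14-deficient cells. Unstimulated cells were harvested 24 h after plating, so only the 24 h samples match them in time since plating. The unstimulated EGTA sample names EGTA in its title, but its protocol describes only plating. No label says that the samples came from separate cultures or animals, so every p-value rests on scatter among single arrays, some of which may be technical. The series was designed to separate effects of calcium entry from other effects of CD14 loss and of EGTA.

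Ligands of the EGF receptor are made as membrane-anchored precursors that sheddases, chiefly ADAM17 and ADAM10, cut free. The ligand then joins pairs of ErbB receptors, whose kinase domains start the Ras-ERK cascade, and that cascade switches on inhibitors of the receptor and of ERK itself. Epiregulin also binds ErbB4 and can be made by activated macrophages and dendritic cells. HB-EGF binds heparan sulphate, and its human precursor is known as the receptor for diphtheria toxin.

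Levels are given as quantile-normalised log2(intensity + 16), in log2 units, unless a deposited intensity is named. A level of 6.75 is the median probe set of every array, and the added 16 makes fold changes of dim genes such as Ereg look smaller than they are. The Cd14 gene itself lay at 12.65 to 13.28 in wild type cells, 12.49 to 13.02 with EGTA and 4.28 to 5.83 in CD14-deficient cells, which checks the labels. Gapdh stayed within 13.35 to 13.62 and Actb within 13.48 to 13.73. The array medians of deposited intensity lay between 77.9 and 127. Among the arrays, unstimulated EGTA differed most from the rest, with 3311 probe sets under an intensity of 16 against 4635 or more on every other array. The EGTA arrays at 12 and 24 h came from RNA with integrity numbers of 8.8 and 8.7, and all other arrays from RNA at 9.3 to 10.

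Marker genes of other cells also differed between conditions. As background for these counts, 16.2% of all genes tested were higher and 12.1% lower in CD14-deficient cells (limma). With EGTA 7.05% of all genes tested were higher and 5.93% lower. In CD14-deficient cells all 6 tested macrophage markers fell (median -0.97) and 5 of 7 granulocyte markers rose (median 0.74), while with EGTA 2 of 6 macrophage and 0 of 7 granulocyte markers rose (limma; also 0 of 7 at an unadjusted p under 0.05). Summed over the list, macrophage markers ran from an intensity of 7360 to 21700 in wild type, 11100 to 19800 with EGTA and 3300 to 20400 in CD14-deficient cells. Granulocyte markers summed to 3430 to 32900, 3670 to 30700 and 10300 to 33400. Of 7 dendritic cell markers, 5 were above the median on every array of each condition, and of the 6 tested 4 rose in CD14-deficient cells (median 0.22) and 1 with EGTA (median 0.11). Of 3 tested mast cell and basophil markers 2 fell in each comparison: Cpa3, a mast cell protease, by 0.47 and 0.50 (adjusted p = 0.00351 and 0.00578), Kit in CD14-deficient cells by 0.36 (adjusted p = 0.0117) and Mcpt8, a basophil protease, with EGTA by 0.68 (adjusted p = 0.00132). Cpa3 and Kit were above the median on 18 arrays and Mcpt8 on 16, as were the lymphoid markers Rora and Il7r on 18, of which Il7r fell by 0.35 in CD14-deficient cells (adjusted p = 0.00761). Of the same lists, Ms4a2, Fcer1a, Tpsb2, Cma1, Cd3e, Cd3g, Gata3, Nkg7 and Foxp3 were above the median on 0 of 18 arrays, as were the epithelial markers Krt18, Krt14 and Krt5. In these mixed cultures fewer cells of a type and less RNA per cell cannot be told apart, and the part of these markers in the ligand levels was not tested.

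Ereg mRNA was low before LPS, highest at 2 h in each of the 3 conditions and lower at every later time. In wild type cells it lay at 5.13 without LPS and at 8.38, 7.33, 6.13, 6.10 and 5.70 after 2, 4, 6, 12 and 24 h. With EGTA the same times gave 4.41 without LPS and then 7.03, 5.45, 5.34, 4.90 and 5.08. CD14-deficient cells gave 4.51 without LPS and then 9.23, 8.53, 7.75, 7.29 and 6.26. At each of the 5 LPS times the order was therefore CD14-deficient, wild type, EGTA, from high to low, whereas without LPS the wild type array was the highest. Across times the ranges of the conditions overlapped, from 5.70 to 8.38 in wild type, 4.90 to 7.03 with EGTA and 6.26 to 9.23 in CD14-deficient cells. Ereg was above the array median on 7 of 18 arrays, of which only the one at 2 h was from EGTA cells.

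**Figure D1:**
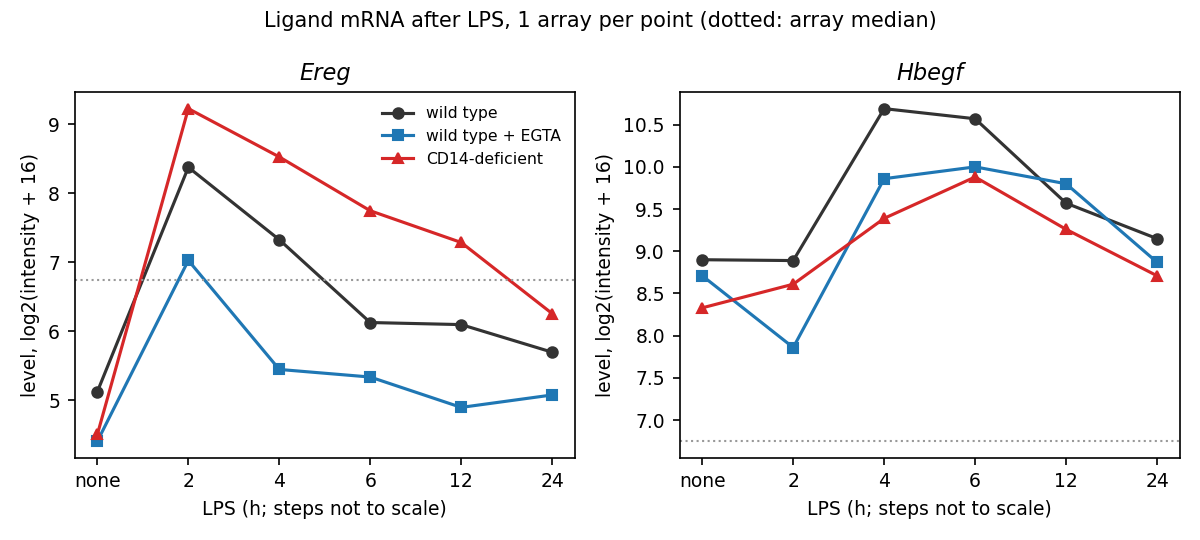
Levels of Ereg (left) and Hbegf (right) in log2(intensity + 16) without LPS and after 2 to 24 h of LPS, with 1 array per point, lines joining the arrays of a condition and a dotted line at the array median of 6.75. Ereg was highest at 2 h in all 3 conditions, and Hbegf at 4 h in wild type and at 6 h in the others.

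The same course is seen in the deposited intensities of Ereg. Wild type cells went from 18.7 without LPS to 324 at 2 h, and the later times gave 124, 49.8, 54.2 and 36.4. With EGTA the intensity went from 12.7 to 102 at 2 h and was 25.7, 25.5, 15.4 and 15.3 at the later times. CD14-deficient cells went from 7.58 to 568 at 2 h, followed by 307, 173, 122 and 56.6. The 2 h intensity was thus 17.3 times the unstimulated one in wild type, 8.02 times with EGTA and 75 times in CD14-deficient cells, each ratio resting on 2 arrays and a dim unstimulated value.

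On the log2 scale Ereg at 2 h exceeded the unstimulated level by 3.25 in wild type, 2.61 with EGTA and 4.72 in CD14-deficient cells. At 24 h, the time that matches the unstimulated cells since plating, the excess was 0.57, 0.67 and 1.75. Fitted over the 3 conditions with the condition as a block, Ereg after LPS was higher by 3.52 ± 0.41 (standard error, as for every fitted value) at 2 h, by 0.99 ± 0.41 at 24 h and by 2.01 ± 0.32 as a mean of 5 times. Without the unstimulated EGTA array these were 3.96, 1.43 and 2.45, and without the unstimulated CD14-deficient array 2.88, 0.35 and 1.37. As background, among all 7517 genes tested 15.7% rose and 23.7% fell at 2 h, 25.4% rose and 25% fell at 24 h, and 26.5% rose and 33.7% fell in the mean over times, at an adjusted p under 0.05.

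Against wild type at the same time, Ereg was higher in CD14-deficient cells at all 5 LPS times and lower with EGTA at all 5. The CD14-deficient level exceeded the wild type level by 0.85, 1.19, 1.63, 1.19 and 0.56 at 2, 4, 6, 12 and 24 h, a mean of 1.08 ± 0.40 (SD, n = 5 times), or 2.12-fold, with a fitted standard error of 0.21. With EGTA the differences were -1.35, -1.89, -0.79, -1.20 and -0.62, a mean of -1.17 ± 0.50 (SD, n = 5 times), or 2.25-fold lower, with a fitted standard error of 0.21. The 5 times are not replicates and Ereg was chosen with these values known, so the SD describes the spread between times and is no test. Before LPS the level was lower in both, by 0.62 in CD14-deficient and 0.72 in EGTA cells, so that only the CD14 difference turned sign once LPS was given. That turn rests on single unstimulated arrays with dim Ereg intensities. They were 18.7 in wild type, 12.7 in EGTA and 7.58 in CD14-deficient cells, so the order before LPS is uncertain. In ratios of deposited intensities the geometric mean over the 5 times was 2.21 for CD14-deficient over wild type cells and 0.331 for EGTA over wild type cells. Among all 7392 genes tested in this fit, 16.2% were higher and 12.1% lower in CD14-deficient cells and 7.05% higher and 5.93% lower with EGTA, which stands here as background only.

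**Figure D2:**
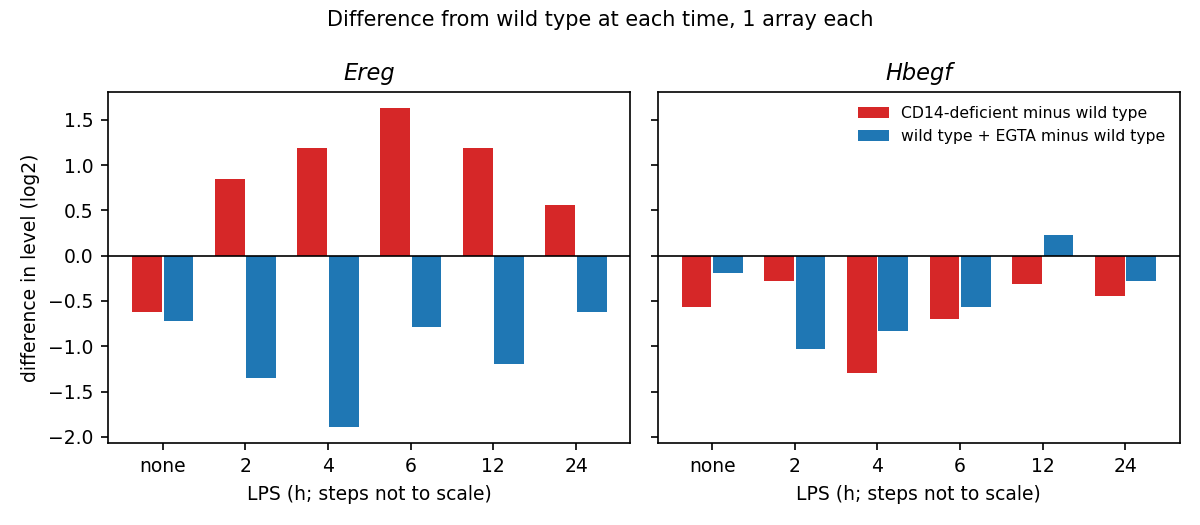
Difference in level from wild type (log2) at each time for CD14-deficient (red) and EGTA (blue) cells, 1 pair of arrays per bar, for Ereg (left) and Hbegf (right). For Ereg all 5 LPS bars of CD14-deficient cells lie above 0 and all 5 of EGTA cells below it, while for Hbegf all CD14-deficient bars and 4 of 5 EGTA bars under LPS lie below 0.

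The comparisons share the wild type arrays, so scatter in those arrays moves both differences the same way. The direct difference between CD14-deficient and EGTA cells does not use those arrays. It was 0.098 without LPS and 2.20, 3.08, 2.41, 2.39 and 1.18 after LPS, a mean of 2.25 ± 0.69 (SD, n = 5 times), or 4.77-fold, and 6.67-fold in deposited intensities. Over 2, 4 and 6 h the differences from wild type averaged 1.22 for CD14-deficient and -1.34 for EGTA cells. Over 12 and 24 h they averaged 0.88 and -0.91, and this contrast between early and late times was not tested. Without the EGTA arrays of lower RNA integrity the EGTA mean was -1.41.

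Hbegf followed another course. It was above the array median on 18 of 18 arrays, and among LPS times it was lowest at 2 h in all 3 conditions, when Ereg was at its highest. In wild type cells it lay at 8.90 without LPS, 8.89 at 2 h and then 10.69, 10.57, 9.57 and 9.15 at the later times. With EGTA it went from 8.71 without LPS to 7.86 at 2 h and then 9.86, 10.00, 9.80 and 8.87. CD14-deficient cells went from 8.33 without LPS to 8.61 at 2 h and then 9.39, 9.88, 9.26 and 8.71. All 3 courses were therefore above the unstimulated level at 4 h and near it at 24 h, and their ranges overlapped. Over the 18 arrays the levels of Ereg and Hbegf had a Pearson r of 0.018, a description of arrays that share conditions and times.

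In deposited intensities, Hbegf in wild type cells was 541 without LPS and 476, 1560, 1440, 775 and 527 at the 5 LPS times. With EGTA the values were 448 without LPS and then 199, 956, 1100, 1070 and 449. In CD14-deficient cells they were 407 without LPS and then 362, 583, 809, 510 and 369. At 2 h each condition was below its own unstimulated intensity. On the normalised scale the 2 h differences from no LPS were -0.014 in wild type, -0.85 with EGTA and 0.27 in CD14-deficient cells, so the conditions did not share a sign.

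The largest differences of Hbegf from no LPS were 1.79 at 4 h in wild type, 1.29 at 6 h with EGTA and 1.54 at 6 h in CD14-deficient cells. The fit over conditions gave -0.20 ± 0.22 at 2 h, 0.26 ± 0.22 at 24 h and 0.76 ± 0.17 as a mean of 5 times. The first is smaller than its standard error and changes sign when the EGTA 2 h array is left out (0.099), and the value at 24 h becomes -0.057 without scaling between arrays. Without the unstimulated EGTA array they were -0.10, 0.36 and 0.86.

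Hbegf was below wild type in CD14-deficient cells at all 5 LPS times, by differences of -0.28, -1.30, -0.70, -0.31 and -0.44. The mean was -0.61 ± 0.42 (SD, n = 5 times), or 1.52-fold lower, with a fitted standard error of 0.17, and the unstimulated arrays already differed by -0.57. With EGTA the differences were -1.03, -0.83, -0.57, 0.23 and -0.28, a mean of -0.50 ± 0.49 (SD, n = 5 times), or 1.41-fold lower, about as large as the spread between times. That difference was -0.81 over 2, 4 and 6 h and -0.025 over 12 and 24 h, and -0.73 without the EGTA arrays of lower RNA integrity. Both Hbegf differences use the same wild type arrays, so a sign that they share is not observed independently. Directly compared, CD14-deficient cells were below EGTA cells at 4 of 5 times. The mean was -0.11 ± 0.51 (SD, n = 5 times), less than the spread between times.

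The other Hbegf probe set gave a like picture. Its levels correlated with those of the first at r = 0.962 over the 18 arrays and were highest at 6 h in all 3 conditions. Its mean difference from wild type was -0.73 ± 0.35 (SD, n = 5 times) in CD14-deficient cells and -0.36 ± 0.33 (SD, n = 5 times) with EGTA. In CD14-deficient cells, then, Ereg was above and Hbegf below wild type at every LPS time, and with EGTA Ereg was below it at 5 and Hbegf at 4 of 5 times.

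The other ligands of the EGF receptor stayed dim or level. Egf, betacellulin (Btc) and epigen (Epgn), which is encoded beside Ereg, were above the median on 0 of 18 arrays and were not tested, with levels of 5.02 to 5.93, 5.80 to 6.47 and 4.44 to 5.74. Tgfa, which encodes transforming growth factor alpha, was above it on 17 of 18 arrays at 6.60 to 7.82. Its differences did not pass the test (limma with Benjamini-Hochberg adjustment over all genes tested, as for every adjusted p): -0.15 ± 0.15 in CD14-deficient cells (adjusted p = 0.508), -0.28 ± 0.15 with EGTA (adjusted p = 0.265) and -0.18 ± 0.19 as the mean after LPS (adjusted p = 0.44). Without scaling between arrays the last was -0.55 with an adjusted p of 0.0107.

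Neuregulins bind ErbB3 and ErbB4. Nrg3 was above the median on 0 of 18 arrays at 4.16 to 5.59. Nrg4 was above it on 9, and rose by 0.82 ± 0.29 at 2 h (adjusted p = 0.035) and 0.97 ± 0.29 at 24 h of LPS (adjusted p = 0.011), but its mean over the 5 times, 0.44 ± 0.22, did not pass (adjusted p = 0.105). Without the unstimulated EGTA array both calls ended (adjusted p = 0.134 and 0.0548). Against wild type it gave 0.18 in CD14-deficient cells (adjusted p = 0.581) and 0.32 with EGTA (adjusted p = 0.38).

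Among the receptors Egfr, read from its brightest probe set, was above the median on every array. Its level lay at 7.55 to 7.97 in LPS-treated wild type, 7.61 to 8.14 with EGTA and 8.08 to 8.53 in CD14-deficient cells, whose 5 values were all above the highest wild type value. Egfr rose in CD14-deficient cells by 0.45 ± 0.12 (adjusted p = 0.0116), higher at 5 of 5 times and by 0.43 without LPS; leaving out the 4 h arrays ended the call (adjusted p = 0.0548). Its 4 dimmer probe sets gave 0.26, 0.18, -0.21 and -0.23, so they do not share this direction. Their mean levels were 4.73, 6.19, 5.48 and 5.98, all below the array median. With EGTA the difference was 0.077 ± 0.12 (adjusted p = 0.721), and the unstimulated EGTA array, which stood apart, held the highest Egfr level of all at 8.70. Erbb2, Erbb3 and Erbb4 were above the median on 0, 1 and 0 arrays and were not tested, at levels of 4.31 to 6.14, 5.37 to 6.78 and 4.07 to 4.62.

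**Figure D3:**
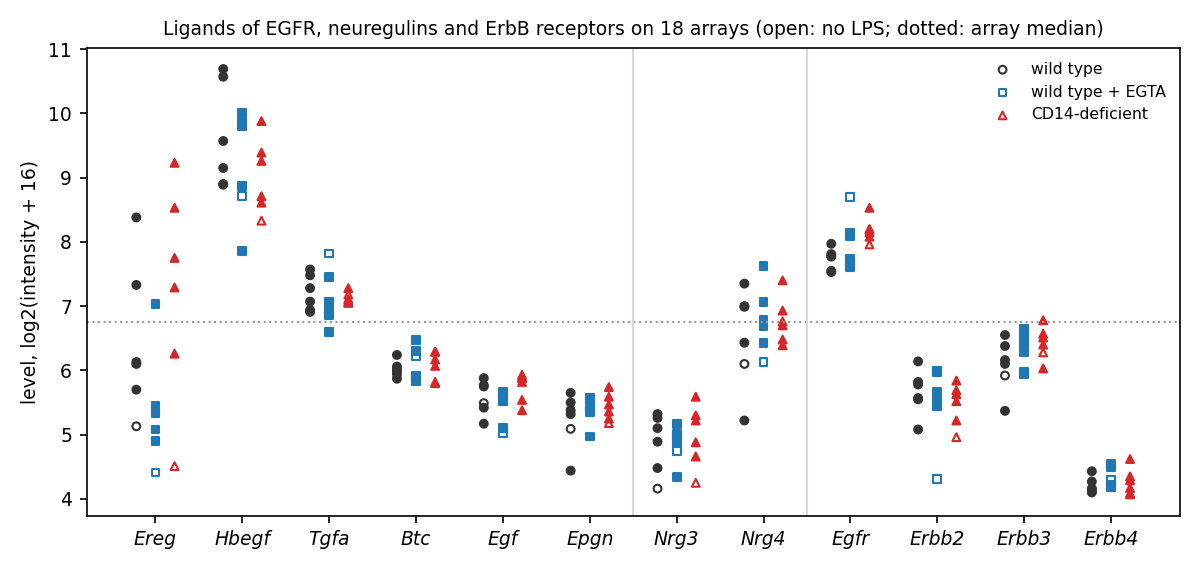
Levels in log2(intensity + 16) of EGF receptor ligands, neuregulins and ErbB receptors on 18 arrays, 1 point per array, open without LPS and filled with LPS, with a dotted line at the array median of 6.75. Ereg and Hbegf spread most across arrays, and Egfr by its brightest probe set is above the median on all 18. Levels of different probe sets are not comparable with each other.

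The wider pathway was read through lists of its genes. Over all lists together, 71 genes were tested: 19 passed in CD14-deficient cells (9 higher, 10 lower), 17 with EGTA (6 higher, 11 lower) and 52 in the mean after LPS (30 higher, 22 lower). Among all genes tested 16.2% were higher and 12.1% lower in CD14-deficient cells, 7.05% and 5.93% with EGTA and 26.5% and 33.7% after LPS, so the CD14 count lies near the share of all genes. Median differences over all genes tested were 0.034, 0.011 and -0.049. Without scaling between arrays these counts were 3 higher and 14 lower, 6 and 6, and 18 and 33. The EGTA count fell to 10 (4 higher, 6 lower) without both EGTA arrays of lower RNA integrity, and the LPS count was 28 higher and 24 lower without the unstimulated EGTA array.

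In the list of genes that release or hold back ligands, 4 of 11 tested rose and 0 fell (1 at an unadjusted p under 0.05 in limma) in CD14-deficient cells (median 0.085), beside 16.2% higher and 12.1% lower among all genes. They were Adam17, the main sheddase of these ligands, by 0.27 ± 0.049 (adjusted p = 0.00173), Adam19, another membrane protease, by 0.58 ± 0.11 (adjusted p = 0.00185), Adam15 by 0.29 ± 0.087 (adjusted p = 0.0226) and Timp1, an inhibitor of metalloproteases, by 0.51 ± 0.12 (adjusted p = 0.00839). Without scaling between arrays Adam17 gave 0.11 (adjusted p = 0.445) and Adam15 0.21 (adjusted p = 0.175). Adam15 also lost its call in 8 of 20 fits that left out an array or a time. Adam10, another sheddase, gave 0.085 ± 0.078 (adjusted p = 0.451), Adam8 0.029 (adjusted p = 0.718) and Cd9 0.05 (adjusted p = 0.452). The Timp1 call ended without the 6 h arrays (adjusted p = 0.0555), and the risers are 3 proteases and 1 protease inhibitor. Timp1 was already higher in CD14-deficient cells without LPS, at 7.40 against 6.40 in wild type, a larger difference than under LPS.

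With EGTA 1 of the 11 rose and 2 fell (median -0.009), beside 7.05% and 5.93% of all genes. Timp1 fell by 1.61 ± 0.12 on the log2 scale (adjusted p = 1.3e-05), lower at 5 of 5 times. Its LPS levels were 8.63 to 9.22 in wild type, 7.04 to 7.55 with EGTA and 9.22 to 9.53 in CD14-deficient cells. The EGTA values therefore do not overlap the others, and the lowest CD14-deficient value is as high as the highest wild type one. Without LPS the EGTA level, at 6.67, was above the wild type level of 6.40, and the CD14-deficient level was 7.40. Adam17 rose by 0.25 ± 0.049 (adjusted p = 0.00653, but 0.0515 without the 6 h arrays; 0.063 and 0.091 by its other probe sets), and Furin, a convertase that matures such proteases, fell by 0.45 ± 0.091 (adjusted p = 0.00681), a call that ended without scaling (adjusted p = 0.0571) and without both EGTA arrays of lower RNA integrity (adjusted p = 0.053).

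After LPS 5 of the 11 rose and 5 fell, beside 26.5% and 33.7% of all genes. Adam17 rose by 0.67 ± 0.072 (adjusted p = 1.0e-06), while Adam10 fell by 0.74 ± 0.088 (adjusted p = 3.4e-06) and Timp2 by 0.67 ± 0.069 (adjusted p = 7.2e-07). Adam8 fell by 0.44 ± 0.057 (adjusted p = 8.1e-06), but by median centring it gave -0.13 (adjusted p = 0.213).

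**Figure D4:**
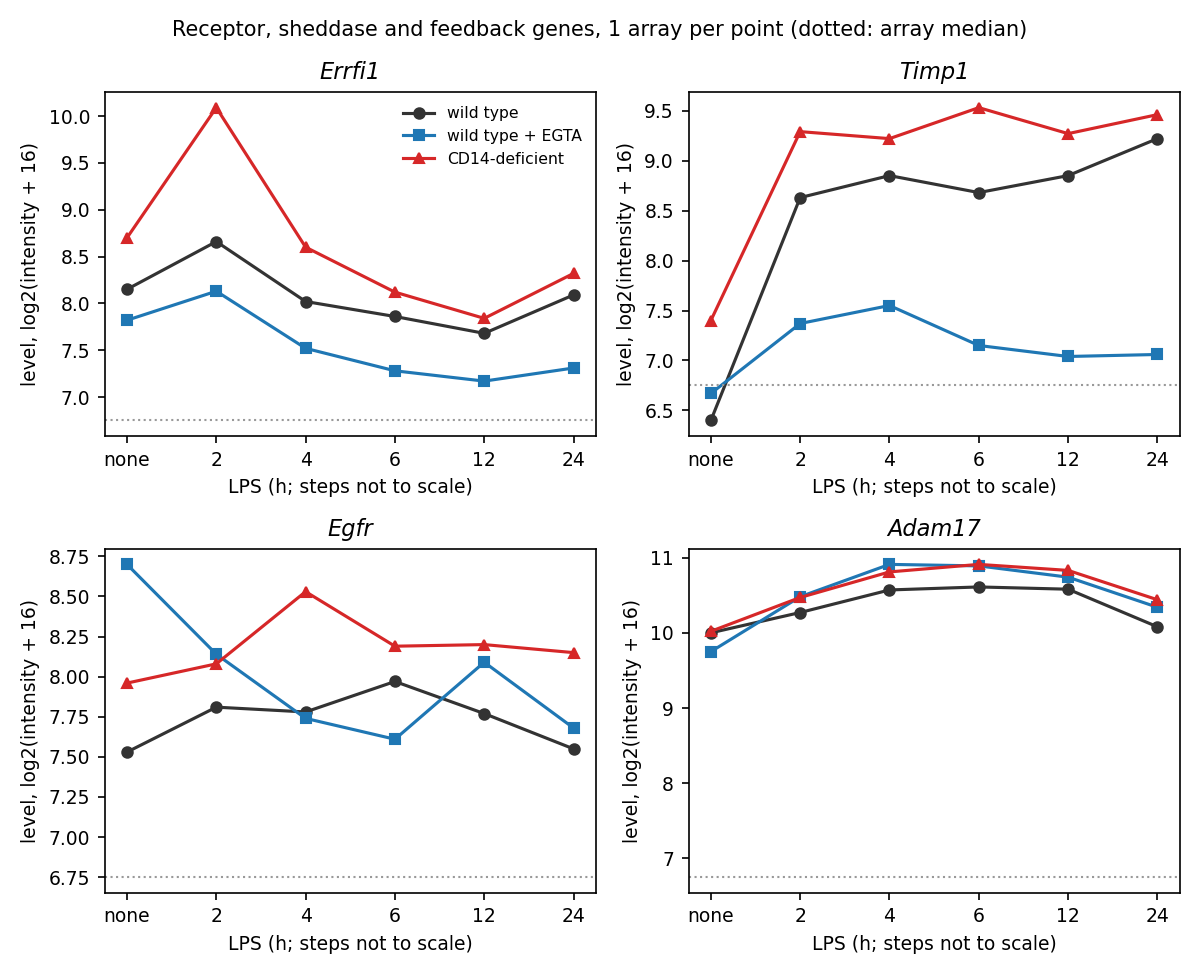
Levels in log2(intensity + 16) of Errfi1, Timp1, Egfr and Adam17 without LPS and after 2 to 24 h of LPS, 1 array per point, with lines joining the arrays of a condition and a dotted line at the array median of 6.75. Errfi1 and Timp1 are highest in CD14-deficient and lowest in EGTA cells at every LPS time, and the 3 Adam17 courses lie close together.

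In the list of adaptors and the Ras-ERK cascade, 0 of 11 tested rose (3 at an unadjusted p under 0.05 in limma) and 1 fell in CD14-deficient cells (median -0.087), beside 16.2% and 12.1% of all genes. The fall was in Map2k1, which encodes the ERK kinase MEK1, by 0.23 ± 0.069 on the log2 scale (adjusted p = 0.0261), a call that ended in 8 of the 20 fits leaving out an array or a time. With EGTA 0 of 11 passed in either direction by limma (median -0.024), beside 7.05% and 5.93% of all genes, and 2 were lower at an unadjusted p under 0.05. Grb2, the adaptor that couples the receptor to Ras, gave -0.12 ± 0.064 (adjusted p = 0.2) in CD14-deficient cells and -0.019 ± 0.064 (adjusted p = 0.883) with EGTA; by median centring and without scaling the former passed (-0.23 and -0.29, adjusted p = 0.0461 and 0.0494). After LPS 4 rose and 1 fell, beside 26.5% and 33.7% of all genes, among them Map2k1, which rose by 0.93 ± 0.068 (adjusted p = 1.7e-08), and Gab1, a docking protein of the receptor, which fell by 1.43 ± 0.15 (adjusted p = 1.2e-06).

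Feedback inhibitors gave 1 rise and 2 falls among 10 tested in each comparison, with medians of 0.091 in CD14-deficient cells and -0.12 with EGTA, where 16.2% and 12.1%, and 7.05% and 5.93%, of all genes rose and fell. Errfi1 encodes MIG6, which binds and blocks the EGF receptor kinase. It lay at 8.66, 8.02, 7.86, 7.68 and 8.09 over the 5 LPS times in wild type, at 8.13, 7.52, 7.28, 7.17 and 7.31 with EGTA and at 10.09, 8.60, 8.12, 7.84 and 8.32 in CD14-deficient cells. Like Ereg, it was highest at 2 h in each condition, and CD14-deficient cells were above and EGTA cells below wild type at 5 of 5 times. Errfi1 rose in CD14-deficient cells by 0.53 ± 0.16 (adjusted p = 0.0249) and fell with EGTA by 0.58 ± 0.16 on the log2 scale (adjusted p = 0.0318); its other probe set gave 0.47 and -0.65. Unlike Ereg, whose unstimulated values were dim, it was already higher without LPS in CD14-deficient cells, by 0.55. Both calls are near the threshold: without scaling the adjusted p was 0.0821 and 0.0959, and they ended in 4 and 12 of 20 fits that left out an array or a time, and for EGTA also without its arrays of lower RNA integrity (-0.65, adjusted p = 0.0928).

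Dusp6, the cytosolic phosphatase of ERK, rose with EGTA by 1.33 ± 0.15 (adjusted p = 1.6e-04), higher at 5 of 5 times and by 1.29 without LPS. In CD14-deficient cells it gave 0.099 ± 0.15 (adjusted p = 0.666). Spry2, a Sprouty inhibitor of receptor signalling, fell with EGTA by 0.59 ± 0.12 on the log2 scale (adjusted p = 0.00728), although its dimmer probe set gave 0.0091. Spred1, which restrains Ras activation of ERK, fell in CD14-deficient cells by 0.27 ± 0.069 on the log2 scale (adjusted p = 0.0115, but 0.06 without the 4 h arrays) and rose after LPS by 1.16 ± 0.072 (adjusted p = 2.4e-09). The other fall in CD14-deficient cells, Socs4, was -0.34 ± 0.12 (adjusted p = 0.0497, but 0.0887 with no filter on low values). The Socs4 call ended in 14 of 20 fits that left out an array or a time. After LPS 5 of the 10 rose and 2 fell, beside 26.5% and 33.7% of all genes.

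**Figure D5:**
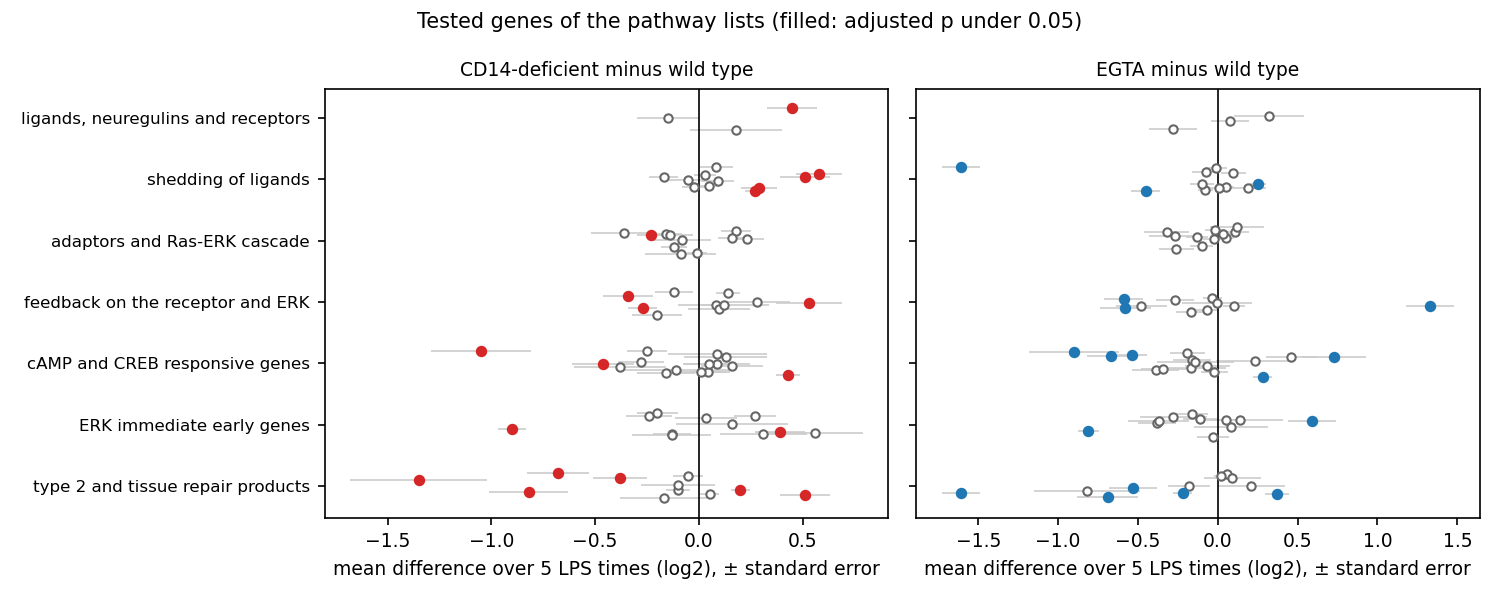
Mean difference from wild type over 5 LPS times (log2, horizontal axis, with standard errors) for each tested gene of the pathway lists, filled where the adjusted p was under 0.05, in CD14-deficient (left) and EGTA cells (right); vertical scatter within a list carries no value. Calls lie on both sides of 0 in the feedback, cAMP, immediate early and type 2 lists of both panels and in the shedding list with EGTA only, and in the Ras-ERK list 1 gene was called in CD14-deficient cells and 0 with EGTA.

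Signalling through cAMP and CREB is a route that induces Ereg in other cells. The next list mixes genes that it switches on with parts of the route itself, such as Creb1, Ptger2 and Ptger4. In CD14-deficient cells 1 of 15 tested rose and 2 fell (median 0.0096), beside 16.2% and 12.1% of all genes. Ptger4, a prostaglandin E receptor that raises cAMP, rose by 0.43 ± 0.06 (adjusted p = 2.9e-04) but gave 0.27 (adjusted p = 0.0767) without scaling. Its other probe set, at a mean level of 8.27, gave 0.11 in CD14-deficient cells and 0.049 with EGTA. Il10 fell by 1.05 ± 0.24 on the log2 scale (adjusted p = 0.00577), and Ptgs2, the cyclooxygenase that feeds prostaglandin E synthesis, fell by 0.46 ± 0.15 (adjusted p = 0.0326). With EGTA 2 rose and 3 fell (median -0.16), beside 7.05% and 5.93% of all genes. Crem, a CREB-family regulator, fell by 0.54 ± 0.098 on the log2 scale (adjusted p = 0.00381), Ptgs2 fell by 0.67 ± 0.15 (adjusted p = 0.0102) and Ptger4 rose by 0.28 ± 0.06 (adjusted p = 0.00971, but 0.0659 without the 6 h and 0.0575 without the 12 h arrays). In CD14-deficient cells Crem gave -0.25 ± 0.098 (adjusted p = 0.0786). By median centring and without scaling that difference passed (-0.32 and -0.39, adjusted p = 0.0193 and 0.0343). Its 2 dimmer probe sets gave -0.5 and -0.17 there, and -0.6 and -0.16 with EGTA. Dusp1, the nuclear phosphatase of MAP kinases, rose with EGTA by 0.73 ± 0.2 (adjusted p = 0.0331), a call that ended in 11 of 20 fits that left out an array or a time. Without both EGTA arrays of lower RNA integrity the EGTA calls of Ptgs2 and Dusp1 ended (adjusted p = 0.0603 and 0.133), and with no filter on low values the CD14 call of Ptgs2 did (adjusted p = 0.0585). After LPS 6 rose and 7 fell, beside 26.5% and 33.7% of all genes, among them Ptgs2, which rose by 5.97 ± 0.14 (adjusted p = 5.6e-14).

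Immediate early genes, the first targets of ERK, gave 1 rise and 1 fall among 11 tested in each comparison (medians 0.036 in CD14-deficient cells and -0.11 with EGTA), where 16.2% and 12.1%, and 7.05% and 5.93%, of all genes did. Atf3, a stress-induced repressor, fell in CD14-deficient cells by 0.90 ± 0.068 on the log2 scale (adjusted p = 1.7e-06) and with EGTA by 0.81 ± 0.068 (adjusted p = 2.0e-05), lower at 5 of 5 times in each. Maff rose in CD14-deficient cells by 0.39 ± 0.12 (adjusted p = 0.0236), and Egr1, an ERK-driven zinc finger factor, rose with EGTA by 0.59 ± 0.15 (adjusted p = 0.0215). The Maff call ended without scaling (adjusted p = 0.132) and the Egr1 call without both EGTA arrays of lower RNA integrity (adjusted p = 0.086). These calls also ended in 10 (Maff) and 8 (Egr1) of 20 fits that left out an array or a time. After LPS 3 rose and 6 fell, beside 26.5% and 33.7% of all genes, and Fos fell by 2.37 ± 0.11 on the log2 scale (adjusted p = 1.3e-10). These changes are means over 2 to 24 h of LPS. No LPS sample was taken before 2 h, so earlier changes of these genes were not seen.

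Among type 2 and tissue repair products, the company in which epiregulin and amphiregulin are often placed, 2 of 11 tested rose and 4 fell in CD14-deficient cells (median -0.10), beside 16.2% and 12.1% of all genes. With EGTA 1 rose and 4 fell (median -0.18), beside 7.05% and 5.93%. Thrombospondin 1 (Thbs1), a matrix protein, fell by 0.68 ± 0.15 on the log2 scale (adjusted p = 0.00464) in CD14-deficient cells and by 0.53 ± 0.15 with EGTA (adjusted p = 0.0336, but 0.142 without both EGTA arrays of lower RNA integrity). The EGTA call of Thbs1 also ended in 11 of 20 fits that left out an array or a time. Vegfa, an angiogenic factor, fell in CD14-deficient cells by 0.82 ± 0.19 (adjusted p = 0.0072), lower at 4 of 5 times. Its other probe set gave -0.66 there. With EGTA both Vegfa probe sets gave -0.69, and the brighter was lower at 5 of 5 times, so the lower level was not particular to CD14-deficient cells. The chemokine Ccl17 rose in CD14-deficient cells by 0.20 ± 0.046 (adjusted p = 0.00552), a call that ended by median centring (adjusted p = 0.154). Tgfb1 rose with EGTA by 0.37 ± 0.073 (adjusted p = 0.00657). After LPS 8 rose and 1 fell, beside 26.5% and 33.7% of all genes, and Il6 rose by 6.46 ± 0.12 (adjusted p = 4.4e-15).

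The genes whose levels ran most like Ereg over the 18 arrays were Phldb1 (r = 0.90), the ribosome assembly gene Rrs1 (0.89), the receptor phosphatase gene Ptpre (0.86), Oaf (0.85) and the gap junction gene Gja1 (0.85), out of all genes that passed the filter. All 5 were highest at 2 h in wild type and EGTA cells, and 4 of them in CD14-deficient cells, where Gja1 was highest at 4 h. They were picked by levels on these same arrays, so their differences from wild type are a description, with no test. In CD14-deficient cells these were 0.52 ± 0.11 for Phldb1, 0.49 ± 0.084 for Rrs1, 0.32 ± 0.063 for Ptpre, 0.41 ± 0.17 for Oaf and 0.23 ± 0.15 for Gja1. With EGTA they were -0.26 ± 0.11, -0.087 ± 0.084, -0.37 ± 0.063, -0.024 ± 0.17 and -0.57 ± 0.15 in the same order, each closer to 0 than the Ereg difference. Oaf passed the filter on low values only through the CD14-deficient arrays at 2 and 4 h, at levels of 6.81 and 6.77. Its difference in CD14-deficient cells is therefore tied to how it passed the filter. Over the 15 LPS arrays alone 0 of the 5 stayed among the 5 most alike, and by median centring all 5 did.

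For Hbegf they were Rmdn3 (r = 0.92), Rilpl1 (0.91), the acetyltransferase gene Kat2b (0.90), the aldehyde dehydrogenase gene Aldh1b1 (0.90) and the endothelin-converting enzyme gene Ece2 (0.90), of which 2 stayed over the 15 LPS arrays. All were highest at 4 or 6 h in every condition. In CD14-deficient cells the differences were -0.40 ± 0.081 for Rmdn3, -1.07 ± 0.16 for Rilpl1, -0.32 ± 0.081 for Kat2b, -0.86 ± 0.099 for Aldh1b1 and -0.077 ± 0.099 for Ece2. With EGTA they ran from -0.18 ± 0.16 (Rilpl1) to 0.022 ± 0.081 (Kat2b), where Hbegf gave -0.50.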

How the data were processed

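Expression was read from 18 arrays of 22690 probe sets. The deposited values are linear intensity values that the authors made with MAS5, per the submitters' processing notes; its version is not given in the sources used here, nor is a scaling target. Probe sets were named through the platform's annotation (20393 with 1 gene, 691 with several, 1606 with none); 12370 of 12394 gene symbols matched RefSeq by gene ID. The files name no genome build, so no coordinates are given.

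Values were turned into log2(value + 16) and quantile-normalised. A gene was read from its brightest probe set and tested when above the array's median on at least 2 fitted arrays (7392 genes over 15 LPS arrays, 7517 over 18). In R 4.3.3 with limma 3.58.1 (lmFit, eBayes with an intensity trend), conditions were compared over the LPS arrays with time as a block (8 residual degrees of freedom), so the 5 times served as replicates, and LPS over 18 arrays with condition as a block (10). P-values were adjusted by Benjamini-Hochberg over all genes tested, at 0.05. The number of arrays limits the precision.

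The ligands and gene lists were chosen with earlier results of these data known. In each list, up to 4 genes with the smallest p and up to 3 bright genes that did not pass could be named; likeness was Pearson's r. Scaling, pseudocount, filter, spread estimate, probe set and left-out arrays were varied.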

Additional observations from a re-analysis of the deposited data

How the results depend on the processing

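Differences of Ereg and Hbegf from wild type under LPS kept their sign under every alternative run. Leaving out each array or time in turn gave 0.95 to 1.28 (Ereg, CD14-deficient), -1.37 to -0.98 (Ereg, EGTA), -0.75 to -0.43 (Hbegf, CD14-deficient) and -0.68 to -0.32 (Hbegf, EGTA). After LPS, the Ereg difference at 2 h was 4.81 with a pseudocount of 1 and 2.25 with 64, and at 24 h it was 1.82 with a pseudocount of 1. For Hbegf, the 24 h difference was -0.057 without scaling and 0.11 by the other probe set, the 2 h difference ran from -0.44 to 0.099 (without the EGTA 2 h array), and the mean was 0.47 without scaling and ran from 0.57 (without 6 h) to 1 (without 2 h). Ereg ran from 2.88 to 3.96 at 2 h, 0.35 to 1.43 at 24 h and 1.37 to 2.45 in the mean; the low end of each was without the unstimulated CD14-deficient array. Hbegf at 24 h ran from 0.21 to 0.36.

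The count of genes called with EGTA, 959 in all, was 455 without both EGTA arrays of lower RNA integrity and ran from 367 (without 6 h) to 1087 when an array or time was left out, with 470 without 4 h, 381 without 12 h, 527 and 532 without the EGTA array at 6 or 12 h, and 583, 581 and 554 without the wild type array at 4, 6 or 12 h. Fewer arrays leave fewer degrees of freedom. Counts ran from 1400 to 2172 for CD14-deficient cells, 2277 to 2998 for LPS at 2 h, 3346 to 3784 at 24 h and 3989 to 4631 for the mean. The pathway lists held 10 EGTA calls without both arrays of lower integrity. Scaling moved the balance of higher and lower calls. For CD14-deficient cells it was 1195 to 897, 837 to 1095 by median centring and 313 to 1084 without scaling; for EGTA, 521 to 438, 529 to 412 and 481 to 188. For LPS it was 1181 to 1783, 1889 to 827 and 600 to 2941 at 2 h; 1912 to 1879, 2054 to 1352 and 747 to 2920 at 24 h; and 1995 to 2531, 2518 to 1597 and 952 to 3915 in the mean. Without scaling the median of all genes after LPS was -0.32 at 2 h, -0.28 at 24 h and -0.32 in the mean. The ratios of deposited intensities, the early and late means and the lists without doubted arrays were chosen after seeing the data. Unstimulated levels of Ereg, at intensities of 7.58 to 18.7, limit its ratios.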

Other observations

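Ereg lies in a cluster of EGF-family and chemokine genes. In the order of protein-coding genes in RefSeq's mouse assembly, Cxcl1, Cxcl2, Mthfd2l and Epgn stand on one side of Ereg, and Areg, Btc, Parm1 and Rchy1 on the other. Cxcl1 and Cxcl2, which encode neutrophil-attracting chemokines, rose at 2 h of LPS by 7.14 (adjusted p = 5.8e-09) and 4.46 (adjusted p = 5.4e-12). With EGTA Cxcl1 fell by 1.41 ± 0.29 on the log2 scale (adjusted p = 0.00817) and Cxcl2 by 0.40 ± 0.11 (adjusted p = 0.0311). The Cxcl1 call ended without the 12 h arrays (adjusted p = 0.0519), and the Cxcl2 call ended in 9 of 20 fits that left out an array or a time, with no filter on low values (0.0608), with no intensity trend (0.0577) and without both EGTA arrays of lower RNA integrity (0.103). In CD14-deficient cells, where Ereg was higher by 1.08, Cxcl1 gave -0.11 ± 0.29 (adjusted p = 0.822) and Cxcl2 -0.092 ± 0.11 (adjusted p = 0.572). Epgn, Btc and Parm1 were too dim to test, and Rchy1, a ubiquitin ligase gene, fell by 0.61 at 2 h (adjusted p = 7.3e-05).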
